A study of Mus musculus with 18 samples.

Results

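Punches of the left side of the brain were compared with punches of the right side of sham mice. By the protocol, though not by the sample labels, the left punches came from mice with a right-sided photothrombotic stroke. The 6 libraries of this comparison, 3 left and 3 sham right, were taken by their labels from 18 libraries in 6 groups of 3, and 14016 genes were tested. Photothrombosis clots the vessels of a small cortical area with light and the dye rose bengal. The protocol gives 100 mg/kg of dye into the abdomen under anaesthesia, 5 min before 15 min of 532 nm light at 40 mW. The light came from a 2 mm fiber centred over the right hemisphere, 2 mm from bregma, where the sutures of the skull meet. All mice were 9-week-old C57BL/6 males, an inbred wild-type strain, and each punch was sequenced as total RNA.

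The left group (left 1, 3 and 5) is described in different ways. The protocol has these punches taken at random from the uninjured side of stroke mice, whereas the sample labels name them as sham tissue and give no time after stroke. The sham right group (sham right 1, 2 and 3) was punched at the place that corresponds to the lesion, and the labels do not say which parts of the procedure the sham mice received. The groups therefore differ in hemisphere and, by the protocol, in whether the mouse had a stroke, and these cannot be told apart here. The lesions, with 3 mice at each of 4 h, 1 day, 3 days and 10 days, are given and tested beside the left punches. Their libraries also enter the filter of genes and the estimate of spread behind the calls between left and sham right. In a fit of the left and sham right libraries alone no gene was called.

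The side opposite a cortical infarct is connected with it through the corpus callosum and shares its blood-borne signals. Known responses to an injury elsewhere in the brain include stress hormones, the glucocorticoids, which enter cells, bind the glucocorticoid receptor and switch on target genes such as Fkbp5, Sgk1 and Tsc22d3. Neuronal activity acts through another set, the immediate early genes such as Fos and Arc, which are transcribed within minutes of synaptic input.

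As a group the left libraries were less alike than the sham right libraries, and this came through left 5. Across genes, left 5 correlated on average at 0.941 with the other left libraries, against 0.966 and 0.964 for left 1 and left 3 and 0.987 to 0.988 for the sham right libraries within their own group. The averages of left 1 and left 3 include left 5. With each other left 1 and left 3 correlated at 0.9886, and pairs of sham right libraries at 0.9865 to 0.9885. The median absolute difference of left 1 and left 3 was 0.132, beside 0.112 to 0.127 for sham right pairs. With the sham right libraries left 5 correlated at 0.966 to 0.974, about as left 1 (0.969 to 0.979) and left 3 (0.966 to 0.976) did. The median SD of log2(FPKM + 1), where FPKM is the number of fragments per kilobase of transcript, scaled to the fragments of the library, was 0.254 in the left group and 0.105 in the sham right group. The long nuclear RNA Malat1 stood at 14.9, 18.99 and 139 FPKM in left 1, 3 and 5, against 39.9, 60.6 and 52.5 FPKM in the sham right libraries. The mitochondrial share of all FPKM was 39.0%, 33.5% and 30.2% in the left libraries and 29.2% to 33.1% in the sham right libraries. Genes of neurons (Snap25), astrocytes (Aqp4) and oligodendrocytes (Mbp) were present in all 6 libraries at the levels given below. Results below are given with all 3 left libraries, and only some of them also without left 5. Where 3 left levels are listed, they are those of left 1, 3 and 5 in that order.

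With all 6 libraries, 4 genes differed between the left and sham right punches, 3 higher and 1 lower. These were the sulfotransferase gene Sult1a1, the membrane protein gene Smim3, the tektin gene Tekt4 and, lower on the left, the neural gene Brinp3. They are 0.0285% of the genes tested (0.0214% higher and 0.00713% lower) at an adjusted p under 0.05 in limma with Benjamini-Hochberg adjustment. At an unadjusted p under 0.05 there were 1077 genes, 7.68% of those tested, of which 249 were higher (1.78%) and 828 lower (5.91%) on the left. Values of the groups did not overlap for 504 genes above (3.6%) and 1162 below (8.29%) all sham right values.

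Sult1a1 encodes an enzyme that attaches sulfate to phenols and is annotated at chr7:126672865-126676432 on the minus strand of GRCm38. It stood at 11.7, 15.0 and 13.8 FPKM in left 1, 3 and 5, against 4.03, 3.55 and 4.12 FPKM in sham right 1, 2 and 3. Every left value was above every sham right value, and the difference was 1.56 ± 0.24 on the log2(FPKM + 1) scale (SE; limma adjusted p = 0.0340). Without left 5 it was 1.54 (adjusted p = 0.00711).

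Smim3, which encodes a small membrane protein, lies at chr18:60474191-60501987 on the minus strand. Its level was 9.44, 10.53 and 10.7 FPKM in the left libraries and 4.33, 3.59 and 4.34 FPKM in the sham right libraries. The 3 left values were close together and above those of sham right, with a log2 difference of 1.14 ± 0.17 (limma adjusted p = 0.0315) and of 1.11 without left 5 (adjusted p = 0.00551).

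Tekt4 encodes a filament protein of the microtubules of cilia and flagella and lies at chr17:25454615-25476602 on the plus strand. It had 2.02, 1.65 and 1.96 FPKM on the left, against 0.477, 0.164 and 0.329 FPKM in sham right. The groups did not overlap, and the log2 difference was 1.12 ± 0.16 (limma adjusted p = 0.0315), or 1.103 without left 5 (adjusted p = 0.00517). Of 9 other genes of cilia and of the ependyma, the ciliated lining of the ventricles, 3 lay above and none below all sham right values, beside 3.6% and 8.29% of all genes, and none was called. Their median log2 difference was 0.11, or 0.27 without left 5. Foxj1, the regulator of motile cilia, had 3.03, 2.20 and 2.28 FPKM on the left and 2.31, 1.503 and 3.11 FPKM in sham right, so its values overlapped.

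Brinp3, a gene of neurons in the family induced by bone morphogenetic protein and retinoic acid, lies at chr1:146494760-146902472 on the plus strand. Its values were 2.94, 2.96 and 3.04 FPKM on the left and 5.47, 5.54 and 5.20 FPKM in sham right. All left values were below all sham right values and nearly equal to each other, with a log2 difference of -0.69 ± 0.11 (limma adjusted p = 0.0340), and of -0.70 without left 5 (adjusted p = 0.00498).

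These 4 calls are close to the threshold with 3 libraries a group. Leaving out left 1, left 3 or any 1 sham right library left no call in limma, with adjusted p of the 4 genes between 0.122 and 0.294, while the difference kept its direction in each of these fits. Brinp3 also lost its call under median, upper quartile and quantile scaling (adjusted p = 0.191 to 0.291), where Smim3 and Tekt4 kept theirs, while Sult1a1 kept its call only under upper quartile scaling (0.0261, against 0.0545 and 0.0728 under median and quantile scaling). No gene was called in a limma fit of these 6 libraries alone, where 769 had an unadjusted p under 0.05.

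**Figure D1:**
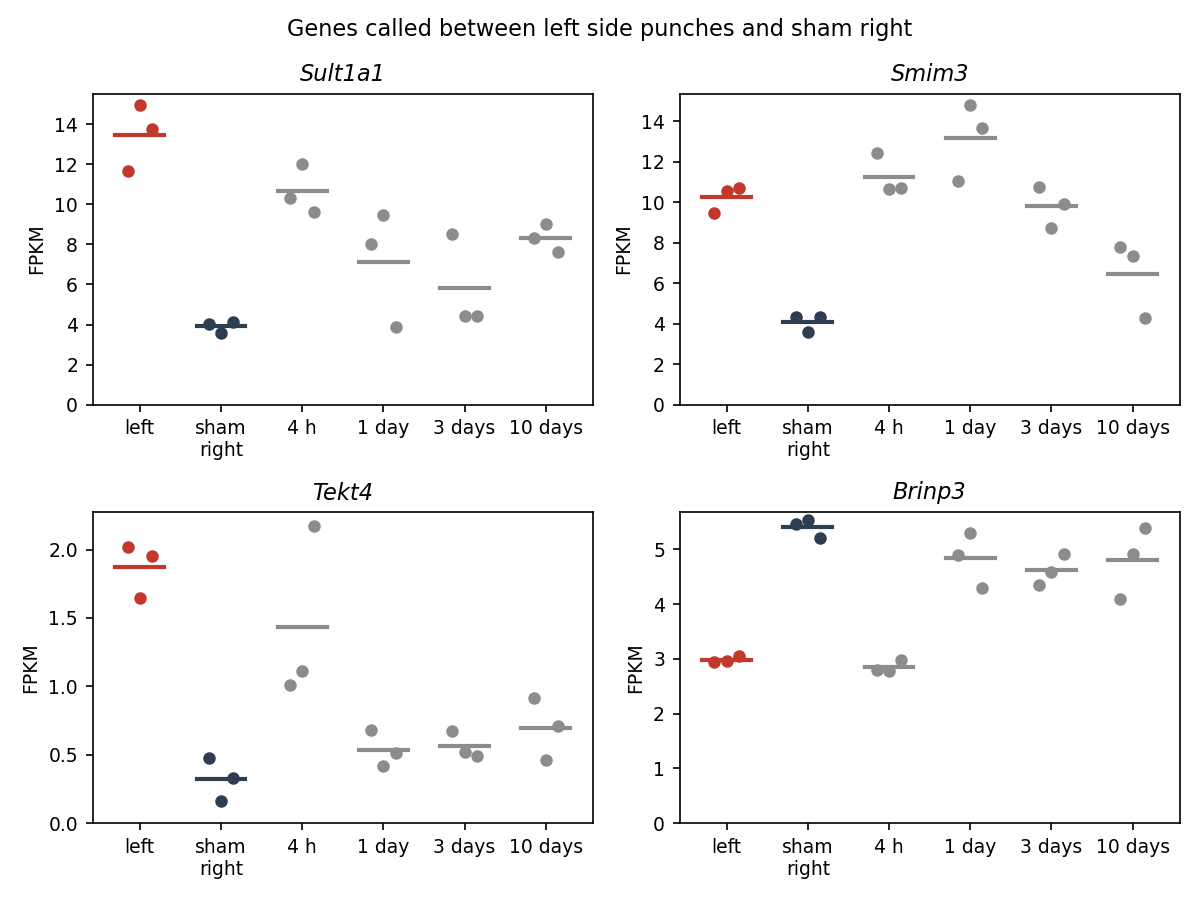
FPKM (vertical axis, from 0) of the 4 called genes in each library of the left, sham right, 4 h, 1 day, 3 day and 10 day groups; points are libraries and bars are group means (n = 3). Left and sham right values do not overlap in any of the 4 panels, and the 4 h mean lies nearer to the left mean than to that of sham right for each of them.

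The same genes in the lesions give a scale for these differences. Sult1a1 averaged 10.7 ± 1.2 FPKM at 4 h, 7.13 ± 2.91 at 1 day, 5.80 ± 2.36 at 3 days and 8.31 ± 0.70 at 10 days (SD, n = 3), and it was lower than on the left at 3 days (log2 difference -1.14, limma adjusted p = 0.0057). Brinp3 averaged 2.85 ± 0.11 FPKM at 4 h and 4.83 ± 0.50, 4.61 ± 0.28 and 4.81 ± 0.66 FPKM at 1, 3 and 10 days. It was higher than on the left at these 3 later times (log2 differences 0.55, 0.49 and 0.54, limma adjusted p = 0.013, 0.0053 and 0.0026) and not called at 4 h. Tekt4 was lower in the lesion than on the left at the 3 later times (limma adjusted p = 0.0082, 0.0018 and 0.0050) and averaged 1.43 ± 0.65 FPKM at 4 h. Smim3 averaged 11.2 ± 1.0 FPKM at 4 h and 6.45 ± 1.91 FPKM at 10 days, and its level was lower than on the left at 10 days alone of the times tested (limma adjusted p = 0.027). Lesion and left contrasts share the left libraries, so these values are side by side and not independent of the calls above.

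Next by p value among higher genes with separate groups and at least 5 FPKM came 6 genes that were not called. Fam107a, which encodes an actin-binding protein known to be induced by stress and glucocorticoids, had 208, 212 and 124 FPKM on the left and 101, 79.0 and 79.3 FPKM in sham right. Its log2 difference was 1.03 ± 0.22 (limma adjusted p = 0.252), and 1.28 without left 5 (adjusted p = 0.00504). Gjb6, the astrocyte gap junction protein connexin 30, had 27.6, 34.6 and 28.1 FPKM, against 16.9, 16.5 and 17.96 FPKM in sham right. Its log2 difference was 0.77 ± 0.17 (limma adjusted p = 0.252; 0.0179 without left 5). Ezr, which encodes ezrin, a linker of membrane and actin, had 21.6, 26.2 and 20.9 FPKM on the left and 16.6, 13.04 and 13.2 FPKM in sham right. The unnamed transcript Gm19439 differed by 1.37 ± 0.27, Zfpm1, a cofactor of GATA factors, by 0.59 ± 0.14, and Rin2, an activator of the small GTPase Rab5, by 0.49 ± 0.11, all on the log2 scale with left above sham right. Without left 5 all 6 were called higher (limma adjusted p = 0.00504 to 0.0337), beside 1.23% of all genes. They were picked by p value and separation in the same libraries, so these calls are not separate support.

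Among lower genes the same rule gave 7 besides Brinp3, none of them called with all libraries. All 7 were called lower without left 5 (limma adjusted p = 0.00230 to 0.0450), beside 7.43% of all genes. Since the rule picked them in the same libraries, these calls are not separate support either. Adcy8, the calcium-stimulated adenylyl cyclase, had 3.35, 3.07 and 3.25 FPKM on the left and 6.21, 6.70 and 6.32 FPKM in sham right. The log2 difference was -0.81 ± 0.15 (limma adjusted p = 0.123), with left values at about the level of the 4 h lesion (2.60 ± 0.68 FPKM). Grin2b, a subunit of the NMDA receptor for glutamate, had 7.34, 4.72 and 14.4 FPKM, against 16.4, 20.8 and 15.1 FPKM in sham right. Its log2 difference was -1.01 ± 0.25 (limma adjusted p = 0.3596; 0.00255 without left 5), and its exons span 24842 bases, which matters for the length pattern given below. The cadherins Cdh8 and Cdh20 differed by -0.66 ± 0.14 and -0.49 ± 0.10, the tRNA synthetase subunit gene Farsb by -0.66 ± 0.12, the membrane protein gene Myadm by -0.83 ± 0.19 and the immediate early gene Ier2 by -0.58 ± 0.14. Myadm was higher in the lesion than on the left at all 4 times (log2 differences 1.00 to 1.19, limma adjusted p = 0.0020 to 0.0081). These contrasts reuse the left libraries for whose low values Myadm was picked, so they are not independent of its difference from sham right.

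Genes of the glucocorticoid response stood above sham right on the left. Of 18 tested, 15 lay above all sham right values and none below, against 3.6% and 8.29% of all genes. Only Sult1a1 was called (0.0214% of all genes were called higher), and 13 were higher at an unadjusted p under 0.05 (1.78% of all genes). The median log2 difference was 0.68 with all 3 left libraries and 0.43 without left 5, beside -0.05 and -0.12 over all genes. By library the median against the sham right mean was 0.33, 0.50 and 1.07 in left 1, 3 and 5. The list was put together with earlier results of these data known, and 18 of 18 positive differences compare with 5623 of 14016 genes.

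Fkbp5 encodes the receptor-bound immunophilin that damps glucocorticoid signalling. It had 6.65, 6.17 and 16.3 FPKM on the left, against 3.798, 3.60 and 3.30 FPKM in sham right. Its log2 difference was 1.11 ± 0.30 (limma adjusted p = 0.413) and 0.70 without left 5. Sgk1, a kinase that regulates ion channels, had 12.9, 17.6 and 37.3 FPKM on the left, against 7.51, 8.93 and 8.44 FPKM in sham right (log2 difference 1.21 ± 0.30, limma adjusted p = 0.3596). Without left 5 the difference of Sgk1 was 0.79 (limma adjusted p = 0.0534). In both genes left 5 was the highest library, and left 1 and 3 were still above sham right.

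Plin4, a coat protein of lipid droplets, had 2.12, 1.94 and 9.12 FPKM on the left and 0.188, 0.181 and 0.199 FPKM in sham right. Its log2(FPKM + 1) difference was 1.93 ± 0.41 (limma adjusted p = 0.246), and without left 5 it was 1.35 and called (adjusted p = 0.0275). Tsc22d3, the anti-inflammatory leucine zipper GILZ, had 19.5, 21.9 and 31.2 FPKM, against 13.9, 14.6 and 15.1 FPKM in sham right. Angptl4, a secreted inhibitor of lipoprotein lipase, had 1.16, 1.20 and 2.25 FPKM, against 0.457, 0.549 and 0.566 FPKM. Levels of both separated the groups without a call (log2 differences 0.67 ± 0.20 and 0.71 ± 0.17, limma adjusted p = 0.475 and 0.337).

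Left 5 was the highest of the 6 libraries for every gene of the list except Sult1a1 and Htra1, a secreted protease. Cdkn1a, the cell cycle inhibitor p21, had 8.03, 8.29 and 25.1 FPKM on the left, against 6.68, 5.93 and 4.78 FPKM in sham right. Ddit4, an inhibitor of mTOR signalling, had 24.7, 28.2 and 32.7 FPKM, against 20.9, 18.5 and 20.9 FPKM. Nfkbia, the NF-kappaB inhibitor, had 12.7, 18.1 and 23.1 FPKM, against 11.4, 10.7 and 11.2 FPKM. Zbtb16, a zinc finger repressor, went the other way in left 1 and 3, with 4.11, 3.05 and 11.01 FPKM on the left and 5.10, 5.18 and 4.39 FPKM in sham right. It and Per1 had a difference above 0 only through left 5, as their values without it were -0.37 and -0.06. In the 4 h lesion the median of the 18 genes against sham right was 1.18, at 1 day 0.57, at 3 days 0.43 and at 10 days 0.12.

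**Figure D2:**
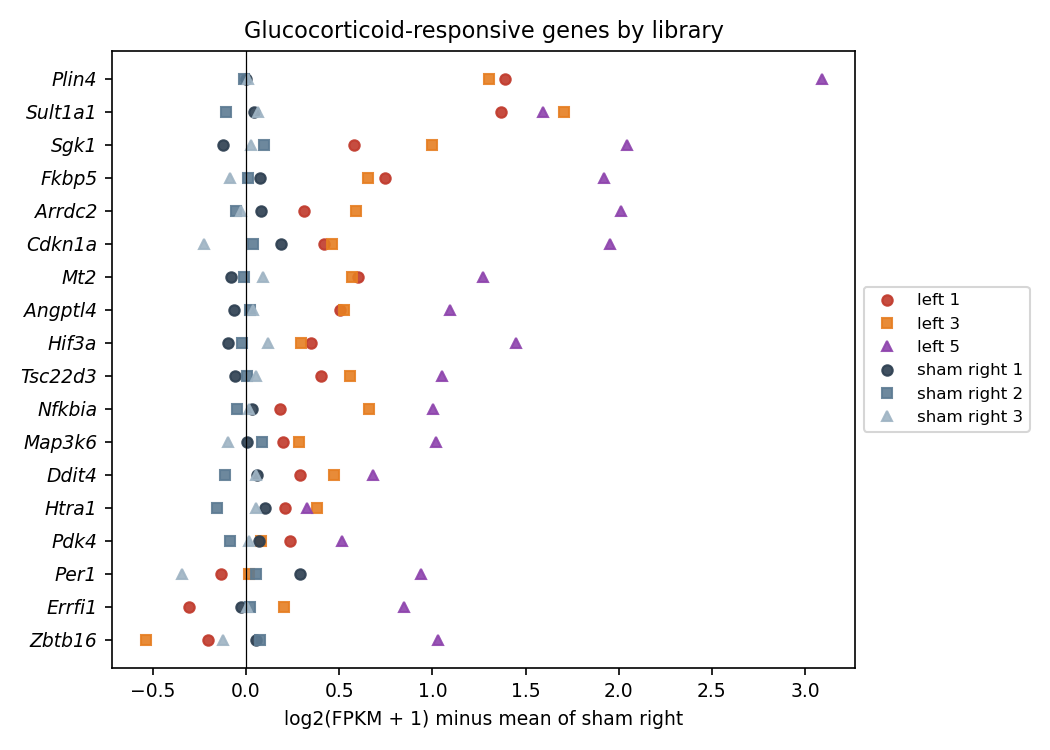
Level of each of the 18 glucocorticoid-responsive genes in the 3 left and 3 sham right libraries, as log2(FPKM + 1) minus the sham right mean (horizontal axis), ordered by the left minus sham right difference. The left libraries lie to the right of sham right for 15 genes, and left 5 is the farthest right for most of them.

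The promoter of Sgk1 is shown because it holds the full palindromic glucocorticoid response element. Those of Sult1a1 and Tekt4 are shown because these called genes held an arm of it. The sequences are from RefSeq on GRCm38.p6, 250 bases up to the base before the transcript start, written in the direction of transcription. Capitals mark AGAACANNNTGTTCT in Sgk1 (chr10:21993640-21993889, plus strand) and its arms, AGAACA or TGTTCT, in Sult1a1 (chr7:126676419-126676668, minus strand) and Tekt4 (chr17:25471340-25471589, plus strand). The RefSeq start of Tekt4 lies inside the longer span given for the gene above, so its window precedes that start and not the first base of the span.
Sgk1: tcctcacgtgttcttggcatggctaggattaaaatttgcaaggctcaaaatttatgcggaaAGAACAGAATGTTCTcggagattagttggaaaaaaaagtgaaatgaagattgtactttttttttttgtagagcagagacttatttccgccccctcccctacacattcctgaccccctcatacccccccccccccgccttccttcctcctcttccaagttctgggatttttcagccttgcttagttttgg
Sult1a1: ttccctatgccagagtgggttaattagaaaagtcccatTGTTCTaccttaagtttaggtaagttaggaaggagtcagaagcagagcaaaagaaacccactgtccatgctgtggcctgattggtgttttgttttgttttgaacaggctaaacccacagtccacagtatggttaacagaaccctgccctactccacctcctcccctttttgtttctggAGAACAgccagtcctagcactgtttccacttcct
Tekt4: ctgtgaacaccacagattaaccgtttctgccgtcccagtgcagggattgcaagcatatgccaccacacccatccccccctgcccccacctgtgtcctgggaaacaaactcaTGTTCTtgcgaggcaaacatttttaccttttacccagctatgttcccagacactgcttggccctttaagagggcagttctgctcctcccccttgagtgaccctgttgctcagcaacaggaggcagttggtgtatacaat

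The full element starts 189 bases before the Sgk1 start and was found in 3 of 32851 windows of this length (0.00913%). It contains both arms, each the reverse complement of the other. The Sgk1 window holds 3 arms in all, and the arm outside the full element is left in small letters above. Of the 18 glucocorticoid-responsive genes 16 had a window, and Sgk1 alone of these held the full element. An arm was present in 3 of the 16 genes (18.8%), beside 18.2% of the 27025 genes with a window, so its share was at the background. Of the 4 called genes 3 had a window, and 2 of these, Sult1a1 and Tekt4, held an arm. In Sult1a1 the arms begin 212 and 34 bases before the start, and in Tekt4 the arm begins 139 bases before it. A match describes these letters only and says nothing of binding.

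Mt1 and Mt2 encode metallothioneins, small zinc-binding proteins known to respond to glucocorticoids among other signals. Mt1 had 171, 196 and 176 FPKM on the left and 97.7, 91.5 and 97.3 FPKM in sham right. Its log2 difference was 0.91 ± 0.23 (limma adjusted p = 0.3596), and without left 5 it was 0.93 and called (adjusted p = 0.0389). Mt2 had 155, 152 and 247 FPKM, against 96.4, 101 and 108 FPKM in sham right. They were the 2 genes above all sham right values among 14 of oxidative stress and metal binding, of which 2 others lay below. Of all genes 3.6% lay above and 8.29% below. None was called with all libraries, and the list had a median of 0.18, or 0.03 without left 5.

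Some genes of neutrophils also stood above sham right. Lcn2, an iron-siderophore binding protein of neutrophils and reactive astrocytes, had 1.55, 1.45 and 1.69 FPKM on the left and 0.233, 0.142 and 0.075 FPKM in sham right (log2 difference 1.16 ± 0.30, limma adjusted p = 0.383). S100a8, a calcium-binding protein of neutrophils, had 2.40, 6.46 and 1.02 FPKM on the left and 1.31, 0.254 and 0.284 FPKM in sham right, so its values overlapped. S100a9 also overlapped, with 3.17, 9.14 and 2.97 FPKM on the left and 3.69, 0.672 and 1.20 FPKM in sham right. Retnlg, a secreted protein of neutrophils, had 1.35, 0.635 and 0.738 FPKM on the left and 0.454 FPKM in sham right 1, and was listed at 0 in sham right 2 and 3. Of 5 neutrophil genes tested only Lcn2 and Retnlg lay above all sham right values (3.6% of all genes) and none below, and the summed level of the 5 was 7.47 to 18.4 FPKM on the left and 1.99 to 6.58 FPKM in sham right. In bulk tissue more cells of a type and more RNA per cell cannot be told apart.

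The cytokine, chemokine and reactive astrocyte genes, which mark the lesion, showed no common shift on the left. Of 12 cytokine and chemokine genes none separated the groups and none was called. Their median log2 difference was -0.02, or 0.06 without left 5, beside 0.90 in the 4 h lesion and 1.93 in the 1 day lesion. Of 19 reactive astrocyte genes 1 lay above and 1 below sham right, beside 3.6% and 8.29% of all genes. Their median was 0.05, or -0.02 without left 5, beside 1.41 in the 1 day lesion. Gfap, the astrocyte filament protein, had 77.2, 75.5 and 42.0 FPKM on the left and 51.1, 42.7 and 52.99 FPKM in sham right. The groups thus overlapped through left 5, while left 1 and 3 were above sham right. Vim, another filament protein, had 4.67, 5.94 and 5.30 FPKM, against 5.13, 4.62 and 3.97 FPKM. Of 18 genes of activated microglia and complement 1 lay above and 1 below sham right, near the shares of all genes. Their median was 0.14, and 0.22, 0.33 and -0.22 in left 1, 3 and 5. Without left 5 it was 0.26, and 1 was called higher (1.23% of all genes). In the 1 day lesion 15 of the 19 reactive astrocyte genes were higher than on the left in limma, and 17 in the 3 day lesion. Over all genes 148 (1.06%), 179 (1.28%), 1309 (9.34%) and 1009 (7.2%) were higher in the lesion than on the left at 4 h, 1 day, 3 days and 10 days.

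Genes of resting astrocytes were mixed, with 5 of 18 above and 1 below all sham right values, beside 3.6% and 8.29% of all genes. Besides Gjb6, Glul, which encodes glutamine synthetase, had 444, 502 and 367 FPKM on the left and 345, 289 and 328 FPKM in sham right (log2 difference 0.44 ± 0.16, limma adjusted p = 0.544). Aldh1l1, a folate enzyme used as an astrocyte marker, had 10.49, 11.7 and 11.97 FPKM, against 10.04, 8.39 and 9.79 FPKM. Aqp4, the water channel of astrocyte endfeet, overlapped, with 34.6, 32.9 and 26.1 FPKM on the left and 33.0, 35.4 and 42.9 FPKM in sham right. Without left 5, Gjb6, Glul and Ndrg2 were called higher, beside 1.23% of all genes.

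Immediate early genes of neuronal activity stood lower on the left. Of 20 tested 8 lay below all sham right values and 1 above, beside 8.29% and 3.6% of all genes. None was called in limma, while 8 were lower at an unadjusted p under 0.05 (5.91% of all genes). The median log2 difference was -0.42, and -0.47 without left 5.

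Arc, which acts in receptor trafficking at synapses, had 45.5, 39.2 and 41.3 FPKM on the left and 91.6, 85.8 and 70.6 FPKM in sham right. The left values were close together and below all of sham right, and the log2 difference was -0.95 ± 0.26 (limma adjusted p = 0.434). Fos, a subunit of the AP-1 transcription factor, had 5.82, 7.08 and 10.14 FPKM, against 13.6, 17.4 and 13.6 FPKM in sham right. Its difference of -0.89 ± 0.27 was not called (limma adjusted p = 0.476), while without left 5 it was -1.08 and called (adjusted p = 0.0316). Npas4, a transcription factor specific to neurons, had 2.17, 2.40 and 3.09 FPKM on the left and 5.24, 5.96 and 4.22 FPKM in sham right.

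Bdnf, the neurotrophin induced by activity, had 4.56, 5.29 and 4.95 FPKM, against 6.05, 7.44 and 6.28 FPKM in sham right. Egr1, a zinc finger transcription factor, overlapped through left 5, with 24.9, 27.6 and 41.5 FPKM on the left and 58.1, 52.1 and 39.4 FPKM in sham right. Nr4a3, a nuclear receptor, was the 1 gene above sham right, with 3.51, 2.85 and 4.196 FPKM, against 2.06, 1.62 and 2.15 FPKM. The list's median against sham right was -0.18, -0.41, 0.05 and -0.94 in the lesion at 4 h, 1 day, 3 days and 10 days. The labels give no time of day for any punch, and its part in these levels was not tested.

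Genes of the vessel wall stood lower on the left as well. Of 32 genes of the brain endothelium and barrier 13 lay below and 1 above all sham right values, beside 8.29% and 3.6% of all genes. None was called in limma, 9 were lower at an unadjusted p under 0.05 (5.91% of all genes), and the median log2 difference was -0.30. By library the median was -0.21, -0.60 and -0.10 in left 1, 3 and 5, so left 3 was the lowest. Without left 5 it was -0.36 and 6 genes were called lower (7.43% of all genes). Over all genes the median was -0.05, or -0.12 without left 5, and -0.14, -0.08 and 0.05 in left 1, 3 and 5. The lower calls without left 5 followed transcript length over all genes, as given below. The summed level of the list was 234 to 339 FPKM on the left and 348 to 368 FPKM in sham right.

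Tek, the receptor of angiopoietins, had 2.30, 1.503 and 2.82 FPKM on the left and 3.52, 4.53 and 3.86 FPKM in sham right. Its log2 difference was -0.65 ± 0.16 (limma adjusted p = 0.3596; 0.0126 without left 5). Podxl, a sialomucin of the vessel lumen, had 3.36, 2.28 and 4.69 FPKM, against 5.32, 5.04 and 5.17 FPKM (log2 difference -0.51 ± 0.17, limma adjusted p = 0.533; 0.0171 without left 5). The receptors of vascular endothelial growth factor were alike in order: Kdr had 0.840, 0.440 and 0.897 FPKM on the left and 1.42, 1.496 and 1.42 FPKM in sham right. Flt1 had 2.93, 1.43 and 3.70 FPKM on the left, against 4.12, 3.96 and 4.08 FPKM.

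Cldn5, the tight junction protein of the barrier, overlapped by 1 library, with 26.7, 16.5 and 12.1 FPKM on the left and 35.0, 26.1 and 28.7 FPKM in sham right. Itm2a, an endothelial membrane protein, had 44.5, 32.4 and 26.6 FPKM, against 47.1, 47.0 and 51.7 FPKM in sham right. Mfsd2a, the barrier's lipid transporter, was the 1 gene above sham right, with 7.88, 7.01 and 12.5 FPKM, against 6.90, 5.56 and 6.60 FPKM. Gkn3, a gene of arterial endothelium, had 2.04, 1.12 and 1.34 FPKM on the left and 3.43, 3.95 and 4.95 FPKM in sham right (log2 difference -1.03 ± 0.23, limma adjusted p = 0.252; 0.0308 without left 5). It was 1 of 2 among 8 arterial genes that lay below sham right, beside 8.29% of all genes. In the 3 day lesion 13 of the 32 endothelial genes were higher than on the left, beside 9.34% of all genes.

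The mural cells of the same vessels followed. Of 14 genes of pericytes and smooth muscle all had a difference below 0, while 5623 of all 14016 genes had one above 0. Below all sham right values lay 3 of them (8.29% of all genes), with a median of -0.32, or -0.46 without left 5. Vtn, a secreted protein made by pericytes, had 12.2, 11.2 and 20.4 FPKM on the left and 23.4, 24.7 and 24.96 FPKM in sham right. The log2 difference was -0.75 ± 0.20 (limma adjusted p = 0.411; 0.00579 without left 5). Acta2, the actin of smooth muscle, overlapped, with 3.12, 1.21 and 5.16 FPKM on the left and 4.21, 6.13 and 7.16 FPKM in sham right. Pdgfrb, the growth factor receptor of pericytes, had 1.99, 1.55 and 3.05 FPKM, against 2.62, 3.34 and 2.94 FPKM. Fibroblasts of the meninges and vessels had 6 of 15 genes below and none above sham right, beside 8.29% and 3.6% of all genes, with a median of -0.29. Their summed level overlapped, with 345, 462 and 334 FPKM on the left and 438, 362 and 423 FPKM in sham right. Dcn, the matrix proteoglycan decorin, was among them with 3.21, 2.93 and 3.36 FPKM on the left and 5.62, 4.78 and 5.43 FPKM in sham right.

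**Figure D3:**
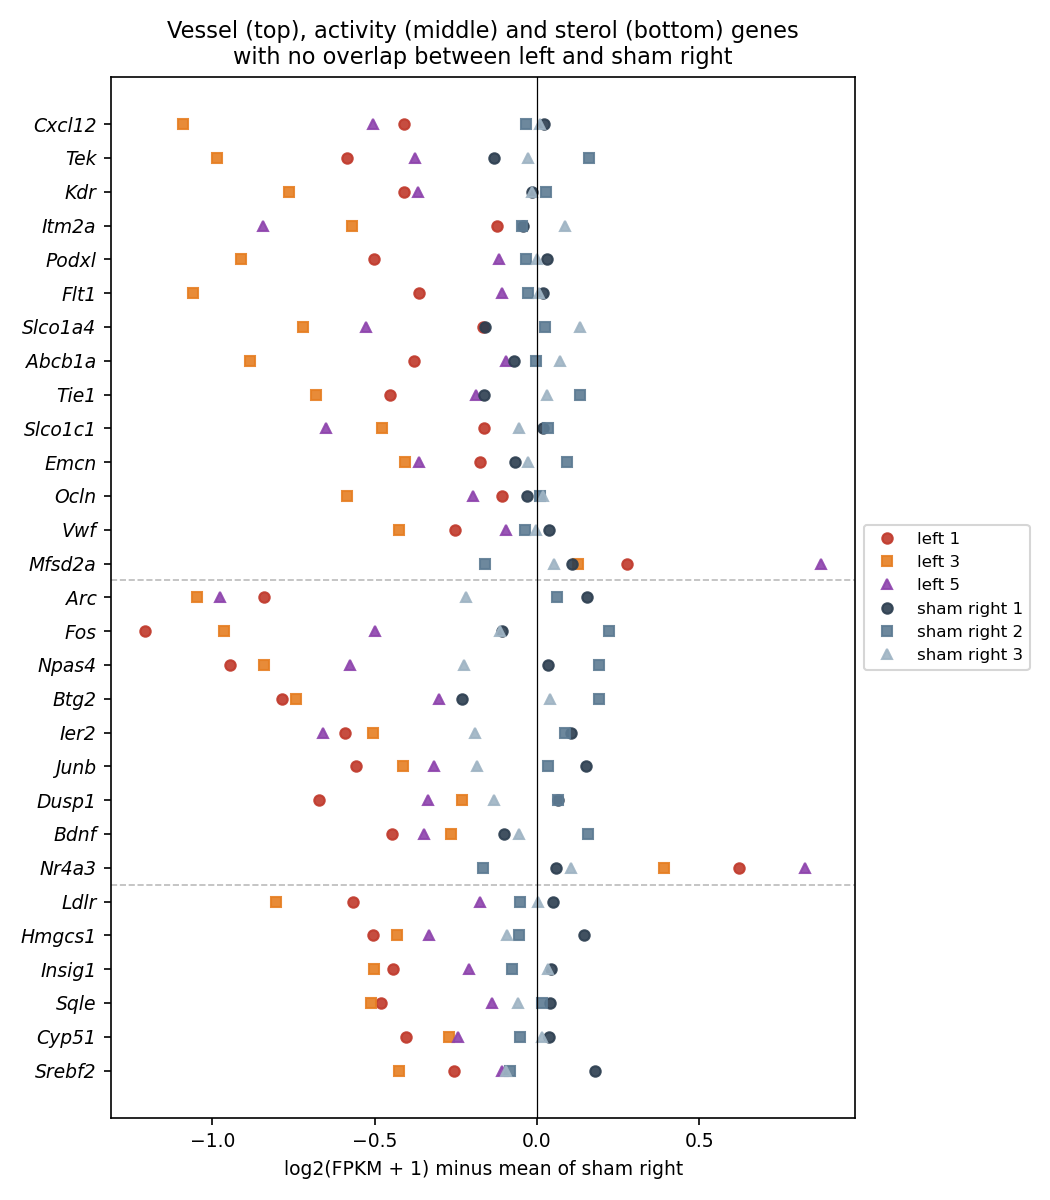
Levels of the endothelial (top), activity (middle) and sterol (bottom) genes whose left and sham right values do not overlap, as log2(FPKM + 1) minus the sham right mean (horizontal axis) in each of the 6 libraries. Left values lie to the left of sham right except for Mfsd2a and Nr4a3, and left 5 is often the left library nearest to sham right among the activity and sterol genes.

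Of 15 genes of sterol synthesis 6 lay below all sham right values and none above, beside 8.29% and 3.6% of all genes, with a median of -0.32, or -0.41 without left 5. Hmgcs1, an early enzyme of cholesterol synthesis, had 48.3, 50.9 and 54.4 FPKM on the left and 76.3, 66.3 and 64.5 FPKM in sham right. Insig1, the sensor that holds back that pathway, had 22.2, 21.3 and 26.4 FPKM, against 31.6, 28.97 and 31.4 FPKM. Of 14 heat shock chaperones 7 lay below sham right and none above, against the same shares of all genes, among them Hsph1 with 24.8, 31.9 and 31.8 FPKM on the left and 39.1, 43.1 and 39.6 FPKM in sham right. The inducible Hspa1a, which shares reads with its near copy Hspa1b, had 2.74, 3.36 and 3.35 FPKM, against 3.73, 3.43 and 3.43 FPKM.

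Markers of the choroid plexus and striatum, which lie below the cortex, also separated the groups in part. Of 11 choroid plexus genes 6 lay above and 1 below all sham right values, beside 3.6% and 8.29% of all genes, with a median of 0.46 and a summed level of 486 to 652 FPKM on the left, against 234 to 367 FPKM in sham right. Ttr, the thyroxine carrier made by the choroid plexus, had 508, 536 and 376 FPKM on the left and 267, 144 and 226 FPKM in sham right. Its log2 difference of 1.18 had an SE of 2.10 in the fit over all 6 groups (limma adjusted p = 0.954). Of 19 genes of striatal projection neurons 4 lay below sham right and none above, beside 8.29% and 3.6% of all genes. Among them Drd1, the dopamine D1 receptor, had 2.16, 2.15 and 2.29 FPKM on the left and 3.45, 3.52 and 3.41 FPKM in sham right. Penk, the enkephalin precursor, had 24.4, 27.4 and 26.1 FPKM, against 40.0, 35.4 and 36.1 FPKM. Ppp1r1b, the striatal phosphatase inhibitor DARPP-32, overlapped with 39.0, 40.7 and 23.8 FPKM on the left and 37.5, 26.8 and 29.2 FPKM in sham right. The median log2 difference of the striatal list was -0.23, or -0.10 without left 5, beside -0.05 and -0.12 over all genes. By library it was -0.03, -0.18 and -0.43 in left 1, 3 and 5. The summed striatal level was 133 to 173 FPKM on the left and 171 to 202 FPKM in sham right. The part of punch position in any of the results was not tested.

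Of 16 circadian clock genes 4 lay above and 2 below sham right, beside 3.6% and 8.29% of all genes. Their median log2 difference was 0.25, or -0.02 without left 5. Dbp, an output factor of the clock, had 16.7, 20.3 and 20.8 FPKM on the left and 10.9, 9.56 and 9.97 FPKM in sham right (log2 difference 0.86 ± 0.30, limma adjusted p = 0.544). Arntl, the clock activator BMAL1, had 2.81, 3.18 and 3.52 FPKM, against 4.57, 4.84 and 4.68 FPKM (log2 difference -0.45 ± 0.12, limma adjusted p = 0.435; 0.0290 without left 5). Its partner Clock had 5.74, 4.95 and 6.92 FPKM, against 8.68, 10.25 and 7.22 FPKM. The output gene thus stood above and the activators below sham right in every left library. Per2, a repressor of the clock, overlapped in left 1 and 3, with 3.33, 3.44 and 8.54 FPKM on the left and 3.56, 2.88 and 2.92 FPKM in sham right.

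Myelin genes were mixed, with 5 of 17 below and 1 above sham right, beside 8.29% and 3.6% of all genes, and a median of -0.31, or -0.12 without left 5. Ugt8a, the enzyme of galactocerebroside synthesis, had 15.0, 16.1 and 9.70 FPKM on the left and 21.5, 20.2 and 28.6 FPKM in sham right (log2 difference -0.76 ± 0.21, limma adjusted p = 0.435). Mbp, myelin basic protein, overlapped, with 188, 165 and 82.1 FPKM on the left and 127, 78.5 and 125 FPKM in sham right. Of 20 genes common to all neurons 1 lay above and 1 below, near these shares of all genes. Snap25, of the vesicle fusion machinery, had 359, 439 and 450 FPKM on the left and 436, 441 and 390 FPKM in sham right, so the groups overlapped.

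**Figure D4:**
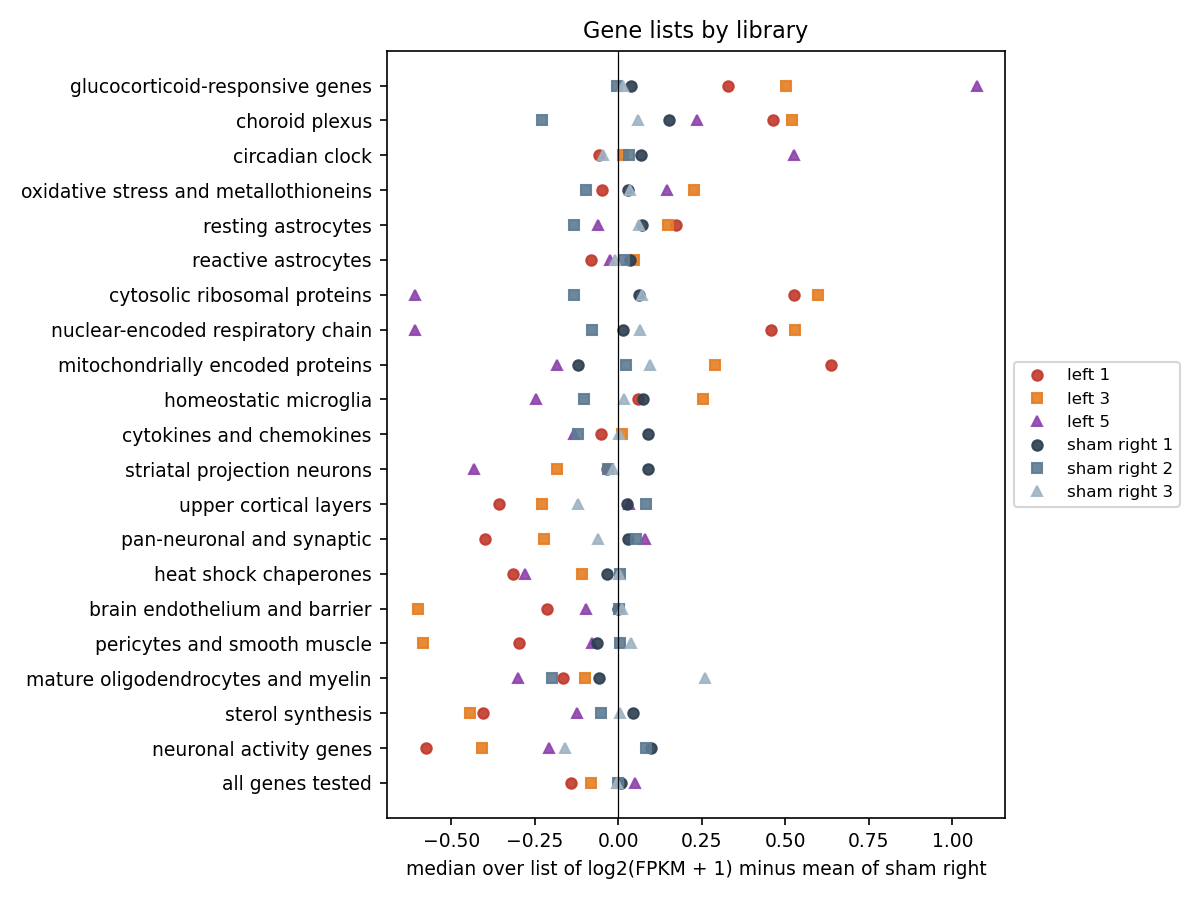
Median over the tested genes of each list of log2(FPKM + 1) minus the sham right mean (horizontal axis), for each left and sham right library. The glucocorticoid list is above sham right in all 3 left libraries, activity and sterol genes are below it, and ribosomal protein and respiratory chain genes are above it in left 1 and 3 and below it in left 5.

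The 3 left libraries went opposite ways for abundant short transcripts. The median of 24 cytosolic ribosomal protein genes against the sham right mean was 0.52 and 0.60 in left 1 and 3 and -0.61 in left 5. For 20 nuclear-encoded subunits of the respiratory chain it was 0.46, 0.53 and -0.61. These sit in a pattern by transcript length over all genes. Genes with under 1 kb of exons had medians of 0.17, 0.25 and -0.18 in left 1, 3 and 5, and genes over 8 kb had -0.32, -0.33 and 0.16, while sham right libraries stayed between -0.06 and 0.05 in every length class.

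**Figure D5:**
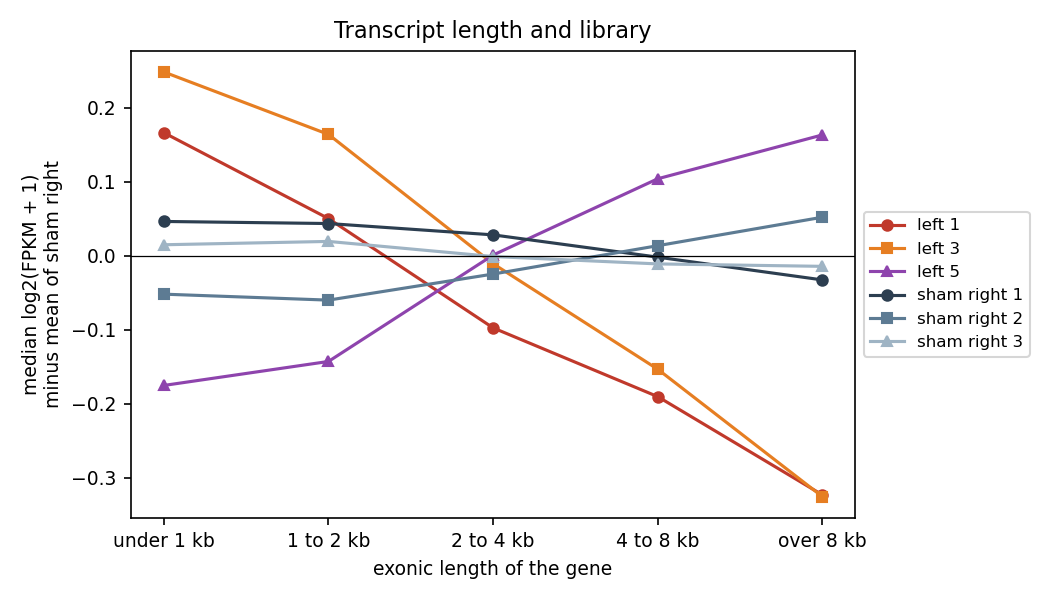
Median log2(FPKM + 1) minus the sham right mean (vertical axis) over genes of 5 classes of exonic length (horizontal axis), with a line for each left and sham right library. Left 1 and left 3 fall with length, left 5 rises with it, and the sham right libraries stay near 0.

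Without left 5 many more genes were called, 1213 (8.65%), with 172 higher (1.23%) and 1041 lower (7.43%). The lower calls followed length: 20.7% of 2237 genes over 8 kb were lower, 8.65% of 4822 genes of 4 to 8 kb and 0.474% of 1266 genes under 1 kb. With the trend with length taken out of each library, 517 genes were called without left 5, 298 higher and 219 lower, so the larger share was then higher. The synaptic genes Grin1 and Gabrb2, subunits of the NMDA and GABA-A receptors, were among 6 of 20 genes common to all neurons that were called lower without left 5 (7.43% of all genes). The fit leaves the left group with 2 libraries that share this length pattern. The 4 genes called with all libraries remained called without left 5, and 3 of them, all but Brinp3 (adjusted p = 0.0733), also without left 5 and with the length trend removed.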

How the data were processed

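RNA of 18 punches was sequenced as total RNA, and 6 libraries form the comparison. The submitters' processing notes list StringTie 1.3.4d, HISAT2 2.1.0, Trimmomatic 0.36 and the build GRCm38; settings, annotation and strand handling are not given in the sources used here. The authors deposited FPKM for each library without stating a scaling between libraries, so depth is unknown and precision rests on the 3 libraries a group. The p-values and q-values that the authors deposited in the same file name no comparison and were not used. The copy used has 34921 complete genes; the smallest p and q imply 38022, and the rest were not analysed here. Names and lengths come from GENCODE M21 (34837 matched).

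Genes with at least 1 FPKM in 3 or more of 18 libraries (14016) were fitted as log2(FPKM + 1) in limma 3.58.1 (R 4.3.3, statmod 1.5.0), 1 mean per group over all 6 groups, with trend and robust moderation; all folds are on that scale, which understates low genes. A call is a Benjamini-Hochberg adjusted p under 0.05 over all genes, and the script was tested on simulated data. Named are called genes, the 8 of smallest p per direction with separate groups and at least 5 FPKM, the first genes of the 44 lists in use, and genes chosen after their values were seen (such as Plin4, Sgk1, Angptl4, Lcn2, Tek, Vtn, Dbp, Penk and other list members). The members and lists were chosen with earlier results of these data known. Alternatives were another pseudocount, filter, scaling and moderation, array weights, a replicate block and leaving out libraries. Numbers shared by left and sham right libraries do not mark shared mice by the protocol. The labels, which call the left punches sham, do not settle this. Counts were not derived, since 36.1% to 42.1% of low values fell within 0.1 of a whole step.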

Additional observations from a re-analysis of the deposited data

How the results depend on the processing

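Of 4 calls (3 higher, 1 lower) by limma, 6 were called (5 higher) with a pseudocount of 0.1, 3 (3 higher, 0 lower) with upper quartile scaling or the length trend removed, and 2 (2 higher, 0 lower) with median or quantile scaling. No gene was called (0 in either direction) with all 34921 genes tested (1711 at an unadjusted p under 0.05), with only the left and sham right libraries (769), or when scaled to the sum without mitochondrial genes (845). Array weights gave 3990 calls (1060 higher, 2930 lower). Leaving out left 5 and 10 day 5 gave 2760 (679 higher, 2081 lower). Leaving out 1 library gave 0 to 1213 calls, 0 to 172 higher and 0 to 1041 lower; the count was above 0 only without left 5. Without left 5, 517 (298 higher, 219 lower) were called with the length trend removed and 492 (154 higher, 338 lower) after quantile scaling; these and the length trend were chosen after seeing the data. The cause of these changes was not tested.

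With the replicate number as a block 1 gene was called (1 higher, 0 lower). The deviations of left 1 and sham right 1 from their group means correlated at 0.219 and those of left 3 and sham right 3 at 0.102. Left 3 and sham right 1 had 0.188, and left 5 and sham right 2 had 0.371. These values cannot tell whether shared numbers mark shared mice, since they carry differences over whole libraries.

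Among 93 named genes, 17 values changed sign, none of them called. Zbtb16 was at -0.29 with array weights, -0.37 without left 5 and 10 day 5, -0.37 to 0.41 when 1 library was left out, and -0.19 without left 5 with the length trend removed or quantile scaling. Per1 was at -0.059 without left 5 and 10 day 5, and at -0.059 to 0.48 when 1 library was left out. Snap25 was at 0.054 with median and 0.043 with upper quartile scaling, 0.082 with the length trend removed, 0.14 when left 5 was also left out, and at -0.087 to 0.077 when 1 library was left out. Aqp4 was at 0.089 with the length trend removed and left 5 left out, and when 1 library was left out Ppp1r1b ran from -0.017 to 0.36, Foxj1 from -0.081 to 0.28 and Malat1 from -1.525 to 0.047. All other values of named genes kept their direction.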
